A study of Mus musculus with 28 samples.

Results

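The 10 genes described here are serpins of clade A, the branch of the serine protease inhibitor family that the liver secretes into plasma. They were picked by symbol, with no threshold on their values, and their symbols were matched to the mouse Ensembl identifiers of the counts table, in which they take 10 of 21935 rows. The members were Serpina1a, Serpina1b, Serpina1c, Serpina1d and Serpina1e, which are the 5 mouse copies of the α1-antitrypsin gene, together with Serpina3k, Serpina3m, Serpina3n, Serpina6 and Serpina7. All 10 passed the filter on low counts, as did 12580 genes in all. The 5 copies were also added up within each mouse and treated as a single gene, called the Serpina1 sum.

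Livers came from 28 male B6.V-Lepob/JRj mice, an ob/ob strain that lacks functional leptin, so every group shared the leptin deficiency. The mice were obtained at 5 weeks of age, spent 14 weeks on the AMLN diet (high in cholesterol, fat and fructose), and then received an oral dose once daily for 2 weeks with the diet continued. A total of 10 mice received the vehicle, carboxymethylcellulose, 9 received obeticholic acid (OCA) at 30 mg/kg and 9 received INT-787 at 30 mg/kg. Both compounds are agonists of FXR, the nuclear receptor for bile acids. Each mouse gave 1 library of polyadenylated RNA, and the libraries were compared as 3 pairs of groups, of which INT-787 against OCA is the comparison of compounds at a matched dose and time. No group of lean or chow-fed mice was analysed here, so the values describe a change on top of obesity and diet.

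A serpin inhibits its protease as a bait: the enzyme cuts an exposed reactive centre loop and is trapped in a covalent complex with the serpin. α1-antitrypsin protects tissue from neutrophil elastase, and mice carry several nearly identical copies of its gene where humans have a single one. The Serpina3 genes are a mouse expansion of the α1-antichymotrypsin family, and Serpina6 and Serpina7 encode corticosteroid-binding globulin and thyroxine-binding globulin, serpins that carry hormones in blood and inhibit no protease.

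The Serpina1 copies lie in a cluster on the minus strand of chromosome 12 (GRCm38): Serpina1b at chr12:103728156-103830373, Serpina1d at chr12:103763594-103773592, Serpina1a at chr12:103853589-103863562, Serpina1c at chr12:103894926-103904887 and Serpina1e at chr12:103946931-103958975. Each has a coding sequence of 1239 bases, of which 86 positions differ among the copies. The 90 bases in which the copies differ most are shown because they come from the last exon (exon 5 of 5), the exon that encodes the reactive centre loop. They are coding bases 1105 to 1194 of GENCODE transcripts, written 5′ to 3′, with capitals at the 20 positions where the copies are not all the same. In Serpina1e, the copy that fell most, the window occupies chr12:103947066-103947155 on the minus strand.
Serpina1a: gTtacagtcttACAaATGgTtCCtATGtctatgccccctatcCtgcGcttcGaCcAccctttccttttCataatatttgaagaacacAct
Serpina1b: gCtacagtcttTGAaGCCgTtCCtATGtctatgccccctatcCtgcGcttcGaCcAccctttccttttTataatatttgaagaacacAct
Serpina1c: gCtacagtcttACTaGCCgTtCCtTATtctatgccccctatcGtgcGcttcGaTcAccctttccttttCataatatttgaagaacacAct
Serpina1d: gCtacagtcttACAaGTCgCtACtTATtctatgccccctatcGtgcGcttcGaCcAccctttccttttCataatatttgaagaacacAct
Serpina1e: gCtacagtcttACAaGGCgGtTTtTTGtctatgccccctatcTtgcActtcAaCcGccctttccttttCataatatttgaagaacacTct

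Coding identity between pairs of copies ran from 96.29% to 98.47%. Serpina1a and Serpina1c were closest, with 19 differing bases, and Serpina1d and Serpina1e were as far apart as any pair, with 46. Among the stretches of 75 bases that can be read from each transcript, 33.9% were unique to the gene for Serpina1c, 42.5% for Serpina1a, 62.9% for Serpina1d, 74.9% for Serpina1b and 79.7% for Serpina1e, against 90.3% to 100% for the other 5 members. How reads that match several copies were counted is not given in the sources used here, so levels and shares of the copies are uncertain where reads could be split among them. Serpina1c also overlaps an antisense gene over 429 exon bases, and Serpina3k and Serpina3m share 60.

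Total counts ran from 1009593 to 18342272 in vehicle, from 10990531 to 22421506 in OCA and from 12513715 to 22128216 in INT-787. The shallowest library, vehicle replicate 6, was far below the next vehicle library at 9313260. Over 70 pairs of genes whose exons overlap on opposite strands, the median level of the less expressed gene, relative to the overlapping part of its partner, was 0.366 in vehicle replicate 5 and 0.0186 to 0.0509 in the other 27 libraries. Leaving out both at once ended the INT-787 calls against vehicle of Serpina3n and Serpina6 and no other call of a member. The members together took 0.793% to 1.60% of the counts of a mouse. Levels are given as CPM, read counts scaled to the TMM effective library size of each mouse. The p-values set differences between groups against the spread between individual mice.

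With INT-787, 7 of the 10 members changed against vehicle: Serpina1d, Serpina3m and Serpina6 rose, Serpina1e, Serpina3k, Serpina3n and Serpina7 fell, and Serpina1a, Serpina1b and Serpina1c did not pass the test. With OCA, 5 changed: Serpina1d, Serpina3m and Serpina3n rose, and Serpina1e and Serpina7 fell. Between the compounds, 5 had a lower level under INT-787 (Serpina1c, Serpina1e, Serpina3k, Serpina3n and Serpina7) and none was higher. A gene was called at an adjusted p of at most 0.05 in the quasi-likelihood test of edgeR, adjusted by Benjamini-Hochberg over the genes tested.

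Of all genes tested, 19.6% were called for INT-787 against vehicle (10.2% higher and 9.48% lower), 6.6% for OCA against vehicle (4.15% higher and 2.45% lower) and 5.38% for INT-787 against OCA (2.19% higher and 3.19% lower). The counts called in each gene list below are to be read beside these shares. The median log2 fold change over the 10 members was −0.16 for INT-787 against vehicle, 0.35 for OCA against vehicle and −0.57 for INT-787 against OCA, while the medians over all genes lay between −0.01 and 0.02. The first pair of comparisons shares the vehicle mice and the last shares both drug groups, so the 3 medians are not independent. In whole liver the number of cells of a type and the RNA per cell cannot be told apart from the level of a gene. Of 6 hepatocyte markers none was called lower with either compound, and Alb (log2 fold change 0.45 with INT-787 and 0.62 with OCA) and Asgr1, the asialoglycoprotein receptor gene (0.38 and 0.33), were called higher with both.

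**Figure D1:**
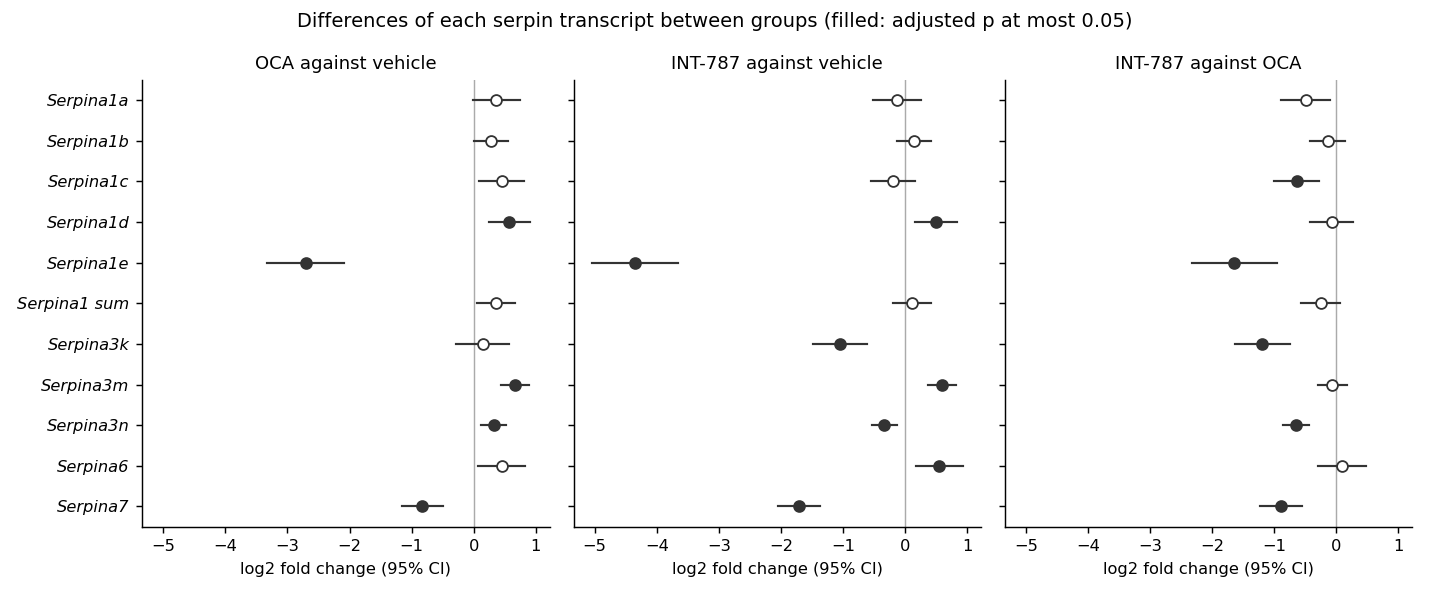
Log2 fold change with its 95% confidence interval (x axis) for the 10 members and the Serpina1 sum (y axis) in the 3 comparisons, with filled points for calls at an adjusted p of at most 0.05. Serpina1e (−4.35 and −2.70 against vehicle) and Serpina7 (−1.71 and −0.83) lie left of 0 with both compounds, whereas Serpina3n lies on opposite sides of 0 (−0.33 with INT-787 and 0.33 with OCA).

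Serpina1e showed the strongest change of the members. Its level in vehicle mice had a lowest value of 21.9 CPM, a median of 42.7 CPM and a highest value of 106 CPM. In OCA mice the corresponding values were 3.36, 7.02 and 15.97 CPM, and in INT-787 mice 2.03, 2.36 and 4.19 CPM. Every treated mouse was thus below every vehicle mouse, and 8 of 9 INT-787 mice were below every OCA mouse. The lowest count behind these values was 30 reads, and whether some of these reads came from the abundant copies was not tested.

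Serpina1e was 20.4-fold lower with INT-787 than with vehicle (log2 fold change −4.35, SE 0.34, adjusted p = 3.03e-11). With OCA it was 6.52-fold lower (−2.70, SE 0.31, adjusted p = 2.16e-07). The compounds themselves differed by 3.13-fold, with INT-787 lower (−1.64, SE 0.34, adjusted p = 0.00296).

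Serpina1d, another copy of the α1-antitrypsin gene, rose with both compounds. It had a lowest value of 657 CPM, a median of 922 CPM and a highest value of 1824 CPM in vehicle, with medians of 1482 CPM in OCA (1125 to 2100) and 1466 CPM in INT-787 (1043 to 2084). The ranges overlapped in every pair of groups. The rise was 1.49-fold with OCA (log2 fold change 0.58, SE 0.17, adjusted p = 0.0281) and 1.42-fold with INT-787 (0.50, SE 0.17, adjusted p = 0.0294). Between the compounds the log2 difference was −0.07 with a 95% confidence interval from −0.42 to 0.27 and did not pass the test. Without vehicle replicate 1, 2 or 3 or INT-787 replicate 4 or 6, without INT-787 replicate 4 and OCA replicate 8 together, or with upper-quartile scaling, the INT-787 call was lost, with adjusted p-values up to 0.0707, and without vehicle replicate 1, 2, 3 or 6 or OCA replicate 3, 4 or 9, or with only the groups compared in the fit, the OCA call was lost, with adjusted p-values up to 0.0683.

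The other 3 copies did not pass the test against vehicle with either compound when the 3 groups were the only factor. With the replicate number as a further factor, Serpina1a and Serpina1c were called higher with OCA (adjusted p = 0.0277 and 0.0142). Serpina1b, the copy with the highest level, had means of 3620 ± 974 CPM in vehicle (SD, n = 10), 4408 ± 734 CPM in OCA and 3998 ± 713 CPM in INT-787 (SD, n = 9 each). Serpina1a had means of 908 ± 419, 1171 ± 185 and 833 ± 233 CPM in the same order, with a log2 fold change of 0.37 for OCA against vehicle (95% confidence interval −0.02 to 0.75). For INT-787 against OCA it was −0.49 (−0.89 to −0.10, adjusted p = 0.140). Of 13 alternatives, 12 left that value uncalled, and the lowest adjusted p was 0.0174. Serpina1c, at 1221 ± 518, 1669 ± 266 and 1069 ± 251 CPM, was 1.56-fold lower with INT-787 than with OCA (log2 fold change −0.64, SE 0.18, adjusted p = 0.0306). That call held in 19 of 28 fits that left out 1 mouse, and was lost without INT-787 replicate 1, 2, 3, 5, 7, 8 or 9 or OCA replicate 4 or 9, with adjusted p-values up to 0.0591.

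When the copies were added up, the Serpina1 sum did not pass the test in any comparison with the 3 groups as the only factor. The sum would be incomplete if reads that match several copies were left out of the counts. The Serpina1 sum had a lowest value of 4306 CPM, a median of 6271 CPM and a highest value of 11463 CPM in vehicle, of 7319, 8184 and 11217 CPM in OCA, and of 5441, 7123 and 9686 CPM in INT-787. All OCA mice lay above the vehicle median, but the vehicle range enclosed every treated mouse. The log2 fold change was 0.11 with INT-787 (95% confidence interval −0.20 to 0.42, adjusted p = 0.667), 0.37 with OCA (0.06 to 0.67, unadjusted p = 0.0206, adjusted p = 0.164) and −0.26 between the compounds (−0.57 to 0.06, adjusted p = 0.395). Vehicle replicate 10 had the highest value of the vehicle group for the sum and for 7 members, and without it the sum was called higher with OCA (0.46, adjusted p = 0.0401). The sum was also called higher with OCA when the replicate number was a factor (0.48, adjusted p = 0.0330).

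**Figure D2:**
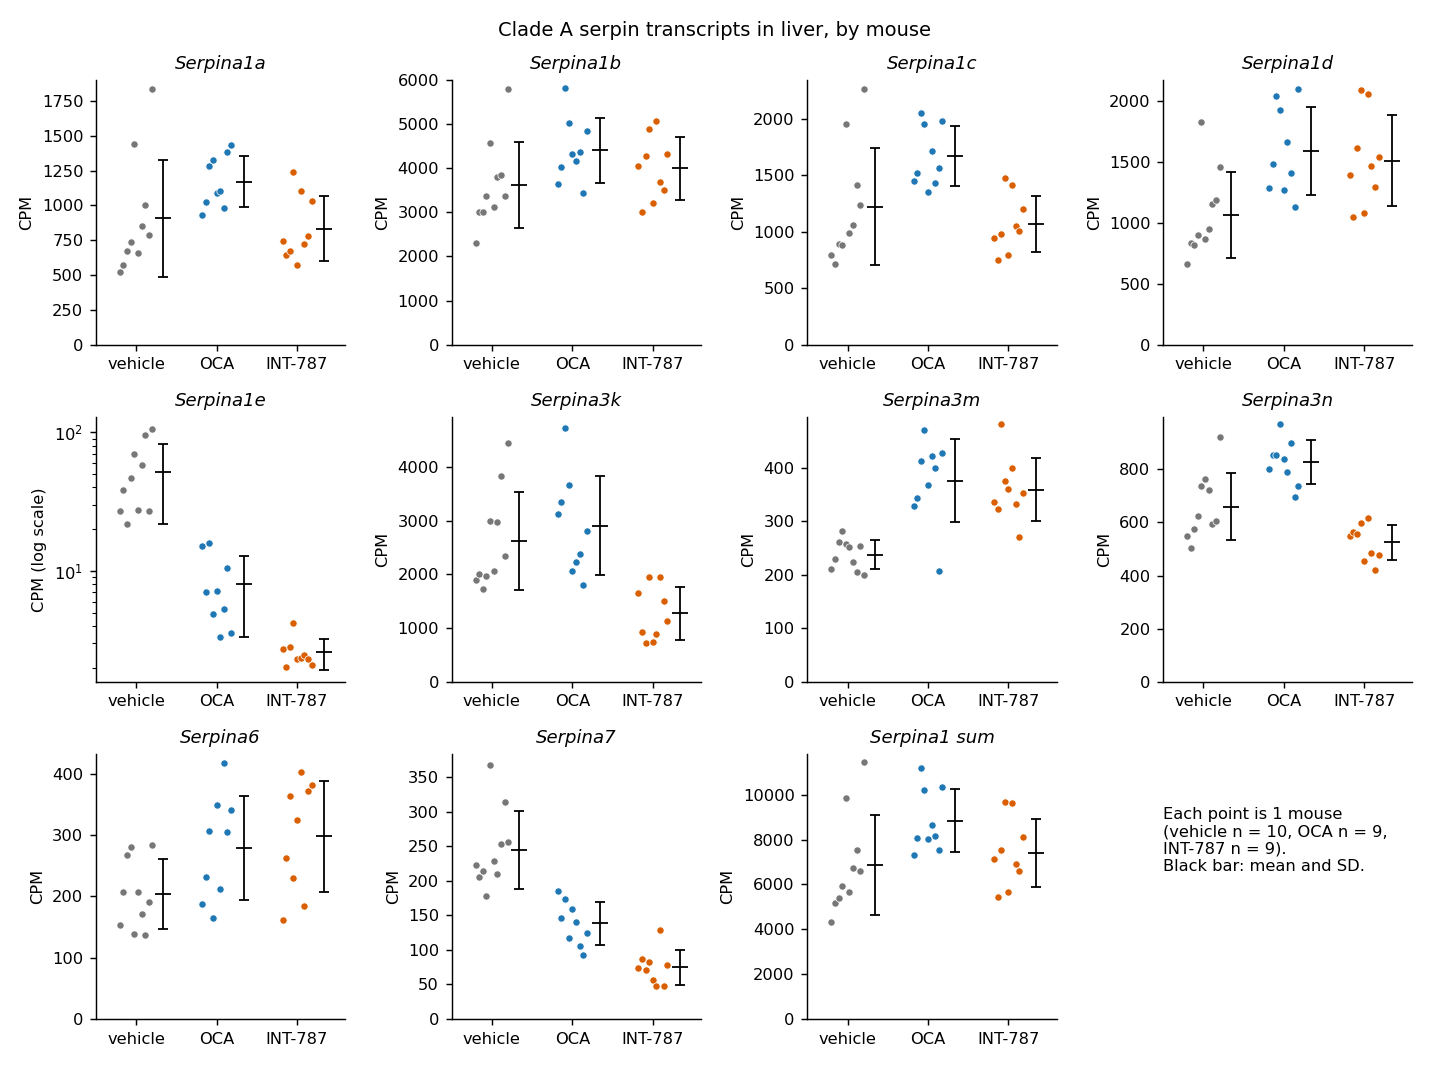
Expression of the 10 members and the Serpina1 sum in each mouse (points, CPM) by group, with a black bar for the mean and SD. The axis is logarithmic for Serpina1e and linear for the others. For Serpina1e (medians 42.7, 7.02 and 2.36 CPM in vehicle, OCA and INT-787) the vehicle mice lie above all treated mice and the treated groups overlap, while for the Serpina1 sum the vehicle range (4306 to 11463 CPM) encloses those of OCA (7319 to 11217 CPM) and INT-787 (5441 to 9686 CPM).

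The shares of the copies in the counted Serpina1 reads moved although the Serpina1 sum did not pass the test. These are shares of read counts, not of transcripts. They are not corrected for exon length, which ran from 1361 bases for Serpina1c to 2415 for Serpina1b. Serpina1b supplied 53.5% ± 3.70 of the Serpina1 sum in vehicle (SD, n = 10), 49.8% ± 2.74 in OCA and 54.2% ± 2.24 in INT-787 (SD, n = 9 each). Serpina1d supplied 15.5% ± 1.69, 17.8% ± 1.67 and 20.2% ± 1.11 in the same order. Serpina1e fell from 0.723% ± 0.265 to 0.0944% ± 0.0580 with OCA and 0.0353% ± 0.00625 with INT-787, so it was a minor copy in these livers before any treatment. Serpina1c supplied 17.4%, 18.9% and 14.4%, and Serpina1a 12.8%, 13.4% and 11.2%.

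Of 15 tests of a share (5 copies in 3 comparisons, exact two-sided permutation tests, Benjamini-Hochberg adjusted over the 15), 12 reached an adjusted p of at most 0.05. The share of Serpina1d was higher with INT-787 than with vehicle (adjusted p = 0.000108, exact permutation test) and than with OCA (adjusted p = 0.00440, exact permutation test), and that of Serpina1c was lower with INT-787 than with OCA (adjusted p = 0.000154, exact permutation test). The tests that missed were Serpina1b for INT-787 against vehicle and Serpina1a and Serpina1c for OCA against vehicle, and the lower share of Serpina1b with OCA (adjusted p = 0.0359, exact permutation test) held in 19 of 28 repeats without 1 mouse. Shares of a mouse add up to 100%, so a copy can lose share without losing transcripts, and Serpina1e was too small to move the others.

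**Figure D3:**
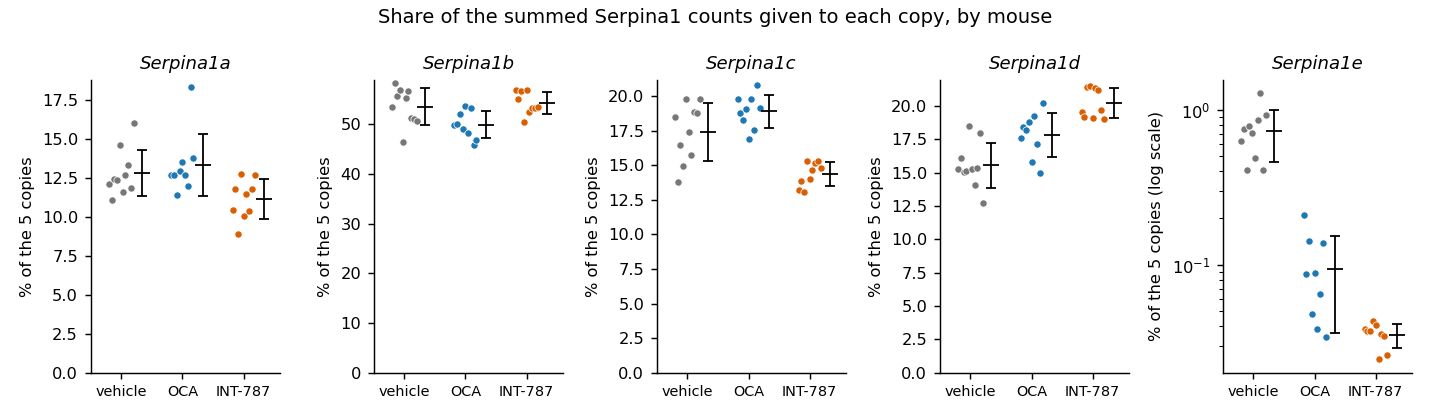
Share of each Serpina1 copy in the Serpina1 sum (y axis, percent, logarithmic for Serpina1e only, and x axis, group) with 1 point per mouse and the group mean and SD. The share of Serpina1d steps up from 15.5% in vehicle to 17.8% in OCA and 20.2% in INT-787, and that of Serpina1e steps down from 0.723% to 0.0944% and 0.0353%.

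Within groups the major copies moved together from mouse to mouse. After the group means were removed, the log2 CPM of Serpina1a, Serpina1b, Serpina1c and Serpina1d each correlated with the Serpina1 sum at Pearson's r of 0.925 to 0.971 over 28 mice, of which each copy is itself a part. Serpina1e correlated with it at only 0.464. These copies share libraries and, in part, sequence, so the coefficients are a description only.

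The promoters of the copy that rose and the copy that fell are shown for comparison, since their expression moved in opposite directions while the letters are close to the same. The sequences are RefSeq promoters (GRCm38.p6), Serpina1d at chr12:103773634-103773819 and Serpina1e at chr12:103956960-103957145, both on the minus strand and aligned without gaps. Both were cut around the same GTTAAT site, which lies at −16 from the listed start in Serpina1d and at −78 in Serpina1e. The stretches thus differ in their distance to the start, and that of Serpina1e lies inside the span given above for its gene. Capitals mark the 8 of 186 positions at which they differ (95.7% identity).
Serpina1d: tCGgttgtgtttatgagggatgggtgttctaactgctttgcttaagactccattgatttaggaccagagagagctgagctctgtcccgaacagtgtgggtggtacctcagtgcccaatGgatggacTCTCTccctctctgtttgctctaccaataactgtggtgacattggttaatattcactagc
Serpina1e: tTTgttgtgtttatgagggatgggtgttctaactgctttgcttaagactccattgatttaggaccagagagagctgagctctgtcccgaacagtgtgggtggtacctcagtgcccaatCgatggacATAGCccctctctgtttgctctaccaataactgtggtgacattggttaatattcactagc

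The Serpina3 genes, on the plus strand of chromosome 12, each behaved differently. Serpina3k (chr12:104338486-104346144), a contrapsin-type serpin made in large amounts by the liver, had a lowest value of 1723 CPM, a median of 2197 CPM and a highest value of 4444 CPM in vehicle, of 1803, 2806 and 4734 CPM in OCA and of 727, 1127 and 1948 CPM in INT-787. In 7 of 9 INT-787 mice it was below every vehicle mouse, and in 7 of 9 below every OCA mouse. It was 2.06-fold lower with INT-787 than with vehicle (log2 fold change −1.05, SE 0.21, adjusted p = 0.000620) and 2.29-fold lower than with OCA (−1.19, SE 0.22, adjusted p = 0.000944). With OCA the log2 fold change was 0.15, with a 95% confidence interval from −0.28 to 0.58.

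Serpina3m (chr12:104338486-104394257), its close relative with 91.55% coding identity, did the reverse with INT-787. Its values were 200.4, 241 and 281 CPM (lowest, median, highest) in vehicle, 208, 400 and 472 CPM in OCA and 272, 354 and 481 CPM in INT-787. In 8 of 9 mice of either drug group it exceeded every vehicle mouse. The rise was 1.58-fold with OCA (log2 fold change 0.66, SE 0.11, adjusted p = 0.000141) and 1.51-fold with INT-787 (0.60, SE 0.11, adjusted p = 0.000215). The compounds differed by −0.06 with a 95% confidence interval from −0.30 to 0.17, and this difference did not pass the test.

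Serpina3n (chr12:104406729-104414329), an acute-phase inhibitor of granzyme B, was the member that moved in opposite directions with the compounds. Its values were 505, 615 and 923 CPM (lowest, median, highest) in vehicle, 695, 837 and 970 CPM in OCA and 420, 550 and 617 CPM in INT-787. Every INT-787 mouse was below every OCA mouse, and all 9 OCA mice were above the vehicle median. It was 1.58-fold lower with INT-787 than with OCA (log2 fold change −0.66, SE 0.10, adjusted p = 0.000134), which is the test of the difference itself.

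Against vehicle, Serpina3n was 1.25-fold higher with OCA (0.33, SE 0.10, adjusted p = 0.0419) and 1.26-fold lower with INT-787 (−0.33, SE 0.10, adjusted p = 0.0173). The OCA call held in 14 of 28 fits that left out 1 mouse, with adjusted p-values up to 0.0863 among the other 14 (without vehicle replicate 1, 2, 3, 4, 8 or 9, OCA replicates 1 to 7 or INT-787 replicate 9), and up to 0.103 over the other alternatives. The INT-787 call held in all 28 of those fits and was lost without vehicle replicates 5 and 6 (adjusted p = 0.0619). The OCA call held in 8 of 13 other alternatives and was lost when sets of neighbouring label numbers were a factor.

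The hormone carriers moved apart with INT-787. Serpina6 (chr12:103646630-103657212, minus strand) encodes corticosteroid-binding globulin, which holds most corticosterone in plasma. Its values were 137, 199 and 284 CPM (lowest, median, highest) in vehicle, 164, 304 and 419 CPM in OCA and 161, 325 and 404 CPM in INT-787. The groups overlapped throughout. The rise with INT-787 was 1.46-fold (log2 fold change 0.55, SE 0.19, adjusted p = 0.0347), and the value with OCA was 0.46 (95% confidence interval 0.08 to 0.83, adjusted p = 0.161), which was called when sets of neighbouring label numbers were a factor (adjusted p = 0.0116). Between the compounds the difference was 0.09 (95% confidence interval −0.29 to 0.48) and did not pass the test. The INT-787 call was lost with upper-quartile scaling, without vehicle replicates 5 and 6 (adjusted p = 0.0832) and in 10 of 28 fits that left out 1 mouse (vehicle replicate 1, 5, 7, 8 or 9 or INT-787 replicate 3, 5, 6, 8 or 9), with adjusted p-values up to 0.0777.

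The glucocorticoid list (9 genes for the handling of and response to glucocorticoids, all tested) had 5 genes higher and 1 lower with INT-787, and 4 higher and 1 lower with OCA, with median log2 fold changes of 0.48 and 0.36 beside medians near 0 over all genes. Akr1d1, the 5β-reductase of steroid and bile acid metabolism, rose the most (1.89 with INT-787, adjusted p = 9.53e-14, and 1.01 with OCA, adjusted p = 1.17e-07) and was higher with INT-787 than with OCA (0.88, adjusted p = 6.21e-06). Hsd11b1, which regenerates active glucocorticoid, rose by 0.91 and 0.71 (adjusted p = 1.67e-05 and 0.00103). Tat, tyrosine aminotransferase, a classic glucocorticoid target, rose by 0.75 and 0.61 (adjusted p = 0.00165 and 0.0231). Dusp1, a phosphatase that is also such a target, had values of −0.56 and −0.62 (adjusted p = 0.0225 and 0.0254). Tsc22d3, encoding GILZ, rose by 0.58 and 0.67 (adjusted p = 0.0453 and 0.0465), and Nr3c1, the receptor itself, by 0.27 with INT-787 (adjusted p = 0.0457). In the 28 fits that left out 1 mouse, the Tsc22d3 calls held in 14 with INT-787 and 9 with OCA and the Nr3c1 call in 14, with adjusted p-values up to 0.124, 0.0909 and 0.0890.

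Serpina7 (chrX:139079257-139085236, minus strand), thyroxine-binding globulin, fell with both compounds and further with INT-787. Its level in vehicle had a lowest value of 178 CPM, a median of 225 CPM and a highest value of 368 CPM. In OCA the values were 93.0, 140 and 185 CPM, and in INT-787 they were 47.2, 73.9 and 128 CPM. Every INT-787 mouse was below every vehicle mouse, 8 of 9 OCA mice were, and 8 of 9 INT-787 mice were below every OCA mouse. It was 3.28-fold lower with INT-787 (log2 fold change −1.71, SE 0.16, adjusted p = 2.22e-09), 1.77-fold lower with OCA (−0.83, SE 0.16, adjusted p = 0.000756) and 1.85-fold lower with INT-787 than with OCA (−0.89, SE 0.16, adjusted p = 0.00103). Like Serpina1e, Serpina3k and Serpina3m, it kept its calls in every fit tried.

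Of 10 genes for thyroid hormone transport and response, all tested, 2 were higher and 3 lower with INT-787, and 1 higher and 3 lower with OCA, with medians of −0.32 and −0.15. Dio1, the deiodinase that converts thyroxine to its active form in liver, fell in the same order as Serpina7, from 116 ± 32.3 CPM in vehicle (SD, n = 10) to 39.8 ± 7.47 CPM in OCA and 21.95 ± 5.77 CPM in INT-787 (SD, n = 9 each). Its log2 fold changes were −2.41 with INT-787 (adjusted p = 6.03e-13), −1.56 with OCA (adjusted p = 2.02e-08) and −0.86 between them (adjusted p = 0.000874). Me1, malic enzyme, fell by 0.64 and 1.03 on the log2 scale with INT-787 and OCA (adjusted p = 0.00145 and 8.21e-06). Thrsp, a lipogenic target of thyroid hormone, rose by 1.10 with INT-787 (adjusted p = 0.0136). Alb, the carrier albumin, rose by 0.45 and 0.62 (adjusted p = 0.0247 and 0.00459). The corepressor gene Hr fell by 0.88 with OCA (adjusted p = 0.0254). The list thus moved in both directions.

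To compare the members with each other, levels were divided by exon length. In vehicle the order in CPM per kb was Serpina1b (1499), Serpina3k (1276), Serpina1c (897), Serpina1d (763), Serpina1a (496), Serpina3n (320), Serpina3m (138), Serpina6 (116), Serpina7 (72.6 to 150.1 over mice) and Serpina1e (32.0). Between neighbours in this order the ranges over mice overlapped except for Serpina3n above Serpina3m and Serpina7 above Serpina1e. With OCA the order of the means was the same, and with INT-787 Serpina3k went from the rank behind Serpina1b to the rank behind Serpina1c, at 618 CPM per kb, while its range still overlapped those of its neighbours. In the same group Serpina1d stood above Serpina1c (1081 against 785 CPM per kb, higher in 9 of 9 mice), the reverse of their order in vehicle, with overlapping ranges. Serpina1e was the lowest in all 3 groups.

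**Figure D4:**
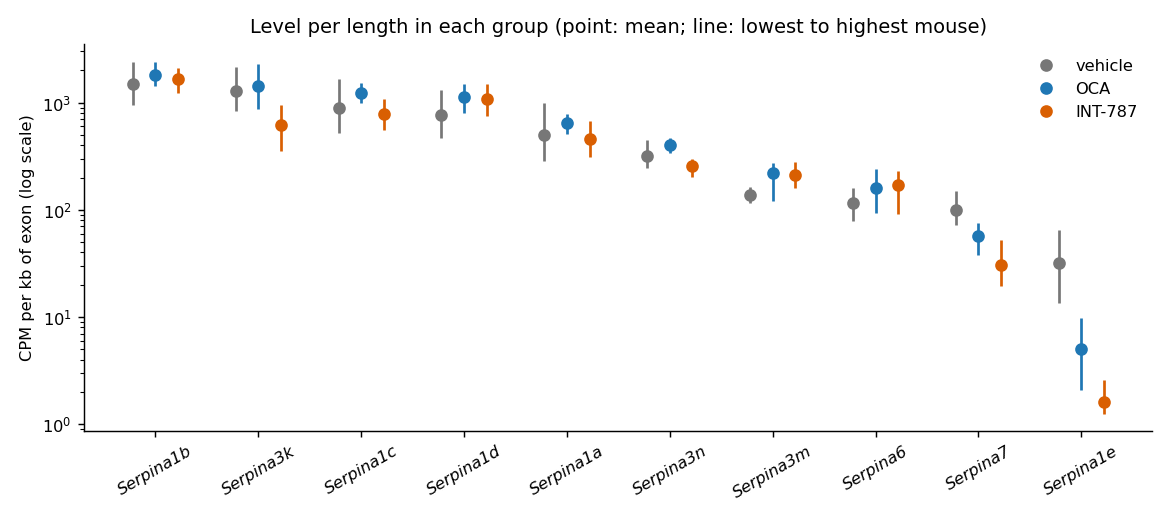
Level of each member per kilobase of exon (CPM per kb, log axis) by group, with the mean and the range over mice. Serpina1b is highest in all groups (1499 CPM per kb in vehicle), Serpina1e lowest (32.0 in vehicle and 1.60 with INT-787), and Serpina3k drops to 618 CPM per kb with INT-787 from 1276 in vehicle.

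Of the 16 other clade A serpins listed, 6 were tested, and 2 were lower with INT-787 against vehicle while none was called with OCA. Serpina11, a serpin whose target is not established, fell by 0.50 on the log2 scale with INT-787 (adjusted p = 0.00889) and was lower than with OCA (−0.69, adjusted p = 0.00266). Serpina10, the protein Z-dependent inhibitor of coagulation factor X, had a value of −0.25 with INT-787 (adjusted p = 0.0480), a call that held in 8 of 28 fits that left out 1 mouse. The median of the 6 was −0.32 with INT-787 and −0.17 with OCA.

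Of 18 transcription factors and receptors upstream of liver serpins, 3 were higher and 2 lower with INT-787, and 2 were higher with OCA, with medians of 0.01 and 0.05. Nr0b2, encoding the FXR-induced repressor SHP, rose by 1.62 with INT-787 (adjusted p = 2.03e-07) and 1.17 with OCA (adjusted p = 0.000104). Stat5b, the growth hormone effector, rose by 0.45 with INT-787 (adjusted p = 0.000951), while Foxa1 fell by 0.39 (adjusted p = 0.0207) and Osmr, the oncostatin M receptor gene, by 0.61 (adjusted p = 0.0348). Il1r1, the interleukin-1 receptor gene, rose by 0.60 with OCA (adjusted p = 0.0471), a call that held in 10 of 28 fits that left out 1 mouse, while that of Osmr held in 21. No gene of this list passed the test between the compounds.

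The route by which α1-antitrypsin leaves the cell was covered by 14 genes of folding, degradation and transport in the endoplasmic reticulum, all tested. Of these, 3 rose with INT-787 and 2 with OCA, none fell, and the medians were 0.07 and 0.25. Over all genes tested, 19.6% were called with INT-787 (10.2% higher) and 6.6% with OCA (4.15% higher). Sel1l, of the degradation ligase complex, rose by 0.29 with each compound (adjusted p = 0.0138 and 0.0305), Edem1, a degradation lectin, by 0.23 and 0.32 (adjusted p = 0.0486 and 0.0136) and Os9, another such lectin, by 0.29 with INT-787 (adjusted p = 0.0397). Among the 28 fits that left out 1 mouse, the Edem1 call with INT-787 held in 9 and the Os9 call and the Sel1l call with OCA in 19 each.

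Transcripts of most proteases on the list of serpin targets were close to undetectable in these livers, and 2 of 11 genes were tested. The proteins were not measured. The mean levels were 0.160 CPM for Elane, neutrophil elastase, 0.281 CPM for Prtn3, proteinase 3, 0.0223 CPM for Ctsg, cathepsin G, and 0.606 CPM for Gzmb, granzyme B. Klkb1, plasma prekallikrein, which hepatocytes make, rose by 0.71 with INT-787 and 0.75 with OCA (adjusted p = 0.000111 and 0.000134), and Cela1, an elastase gene, fell by 0.46 with INT-787 (adjusted p = 0.00640).

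Markers of the cell types in liver were read beside these results. The summed level of 6 hepatocyte markers, of which Alb is the most abundant, had medians of 91168 CPM in vehicle (62957 to 141415), 134061 CPM in OCA (107512 to 199081) and 128308 CPM in INT-787 (97406 to 170823). Most of that sum was Alb (means of 74111, 114239 and 100982 CPM), and of the other 5 markers Asgr1 was called higher with both compounds, Cyp3a11 with INT-787 (0.44, adjusted p = 0.0353), and Apoa1, Ttr and Hnf4a in no comparison. The medians of 6 stellate cell markers were 881, 1012 and 637 CPM, both those and Serpina3n being lowest with INT-787, and Lrat, Col1a1 and Des were called lower with INT-787 than with vehicle, and Col1a1 also than with OCA (−1.59, adjusted p = 0.000155). The 5 cholangiocyte markers had medians of 694, 850 and 387 CPM, which were mostly Spp1, osteopontin (means of 593, 773 and 355 CPM), and the other 4, Krt19, Krt7, Epcam and Sox9, were called in no comparison. The 6 macrophage markers had medians of 515, 432 and 373 CPM, and of these Cd68 (−0.69, adjusted p = 0.000846) and Csf1r (−0.46, adjusted p = 0.0126) were lower with INT-787 than with vehicle, and Cd68 also than with OCA (−0.61, adjusted p = 0.0127). The 5 endothelial markers had medians of 178, 145 and 162 CPM, with Pecam1 called lower with INT-787 (adjusted p = 0.0475), and the 5 T cell markers of 4.97, 5.06 and 4.32 CPM. The neutrophil markers summed to medians of 5.41, 4.84 and 4.49 CPM, with S100a8, Ly6g, Cxcr2 and Mpo each under 1 CPM on average. No marker was at 0 in every mouse, and the part of these cell types in the members' values was not tested.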

How the data were processed

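Livers of 28 mice were profiled by RNA sequencing of polyadenylated transcripts (TruSeq stranded mRNA, NextSeq 500, 75 cycles). The authors aligned reads with STAR 2.5.2a to GRCm38 with Ensembl release 89 annotation and deposited raw counts per gene. The counting program and its handling of strand and of reads with several matches are not given in the sources used here. Groups were taken from the labels. The counts were normalised by TMM and fitted in 1 model of 3 groups with edgeR 4.0.16 (glmQLFit, glmQLFTest, filterByExpr) in R 4.3.3, with Benjamini-Hochberg adjustment over 12580 genes. The Serpina1 sum replaced its 5 rows in a second fit. Shares of copies were compared by exact permutation tests in scipy 1.17.1. The fits were tested on simulated data. DESeq2 1.42.0, limma 3.58.1, other filters and scalings, a replicate block and fits without single mice were tried as alternatives. Replicate numbers follow the order of accession within a group and were not used to pair mice. No library was a duplicate of another. Symbols and coordinates came from GENCODE M21 and were matched for 21858 of 21935 rows.

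The members, gene lists and tests were chosen with earlier results of these data known. All 10 members and the Serpina1 sum were named. From each list, up to 6 genes with a mean of at least 1 CPM and an adjusted p of at most 0.05 in at least 1 comparison were named by smallest adjusted p, or the most expressed where none passed. The named proteases under 1 CPM were chosen after their values were seen. Genes most like a member were the 3 with the highest Pearson's r of log2 CPM (prior count 2) after group means were removed, among genes outside clade A with a mean of at least 5 CPM. The values of 2 list genes and a search of promoters for motifs are not reported here, although the genes remain in the counts of their lists.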

Additional observations from a re-analysis of the deposited data

Results flagged for a closer look

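In 141 groups of values (each member, copy share and named list gene in each of the 3 groups of 9 or 10 mice), the mouse at either end was compared with the others by Dixon's ratio. A total of 13 stood apart from their group, where chance gives about 1 in 20, or 7.05. Among the members, Serpina1e was highest in INT-787 replicate 4 at 4.19 CPM, which was above the lowest OCA mouse, and Serpina7 was highest in INT-787 replicate 7 at 128 CPM. The share of Serpina1a in the Serpina1 sum was highest in OCA replicate 8 at 18.3%.

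OCA replicate 8 was also apart for 4 list genes: Serpine2 at 109 CPM, Serpinb6b at 15.1 CPM and Osmr at 16.6 CPM were its group's highest and Hsd11b1 at 165 CPM its lowest. Without that mouse, the members called were 7 for INT-787 against vehicle and 5 in each of the other comparisons, the counts found with it. The remaining values that stood apart were Serpind1 at 689 CPM in OCA replicate 9, Serpinh1 at 54.1 CPM in INT-787 replicate 1, Foxa1 at 16.3 CPM in INT-787 replicate 8, Tsc22d3 at 72.1 CPM in vehicle replicate 4, and Alb at 169588 CPM in OCA replicate 9 and 140328 CPM in INT-787 replicate 6.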

How the results depend on the processing

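Over 13 alternatives, 411 of 429 values of the members and the sum kept direction and side of the threshold, 11 lost a call, 5 gained one and 2 changed sign. Of 924 values from fits without 1 mouse, 875 were kept, 45 lost a call, 3 gained one and 1 changed sign. Members called with OCA were 5, but 3 with 2 groups per fit and 3 to 6 without 1 mouse (3 without vehicle replicate 1, 2 or 3 or OCA replicate 3 or 4), and those called with INT-787 were 7, but 5 with upper-quartile scaling and 5 to 7 without 1 mouse. The Serpina1 sum with OCA was 0.37 and not called, but called at 0.48 with the replicate block (adjusted p = 0.0330), and ran from 0.31 to 0.46 without 1 mouse. The block changed the members called with OCA to 7 by adding Serpina1a and Serpina1c (adjusted p = 0.0277 and 0.0142), and left the others at 7 and 5. Replicate numbers are names given in order, and 11 of 27 same-numbered pairs of mice correlated above 0.1 (−0.244 to 0.429). Within sets of neighbouring label numbers 13 of 25 pairs from different groups did, against 50 of 236 pairs from different sets, and with the set as a factor the members called were 7, 5 and 5. With OCA, that fit gained the call of Serpina6 and lost that of Serpina3n. Genes called between the compounds were 677, but 443 to 888 without 1 mouse (443 without OCA replicate 8) and 410 without INT-787 replicate 4 and OCA replicate 8, an alternative chosen after seeing the data. Changes of sign occurred only in values that missed the threshold: Serpina1a for INT-787 against vehicle was 0.064 with the replicate block and −0.22 to 0.048 without 1 mouse, Serpina1d between the compounds was 0.0091 with the sets of label numbers as a factor, the Serpina1a share with OCA was −0.0954 to 0.883 percentage points without 1 mouse and the Serpina1b share with INT-787 −0.0750 to 1.26. Upper-quartile scaling moved the share of calls that were higher from 51.7% to 37.5% for INT-787 against vehicle, from 62.9% to 52.3% for OCA and from 40.8% to 32.2% between the compounds. In all of these the cause was not tested. Of 647 values of called list genes over the alternatives, 586 were kept and 61 lost their call, as did 146 of 1400 without 1 mouse. Near-identical copies and the shallow vehicle replicate 6 limit the precision of the levels.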

Other observations

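Serpins of other clades moved as well. Of 18 listed, 14 were tested, of which 3 rose and 5 fell with INT-787, 2 rose and 1 fell with OCA, and 3 were lower in INT-787 mice than in OCA mice. The genes that rose encode plasma inhibitors of coagulation and fibrinolysis. Serpind1, heparin cofactor II, rose by 0.66 with INT-787 and 0.68 with OCA (adjusted p = 2.10e-07 and 4.76e-07), Serpinc1, antithrombin, by 0.56 with INT-787 (adjusted p = 0.000258), and Serpinf2, α2-antiplasmin, by 0.35 and 0.55 (adjusted p = 0.0103 and 0.000275). Serpinh1, the collagen chaperone, fell by 0.87 with INT-787 (adjusted p = 0.000531) and was lower than with OCA (−0.79, adjusted p = 0.00691). Serpinb6b fell by 0.76 and 0.82 with INT-787 and OCA (adjusted p = 0.00645 and 0.00849). Serpine2, protease nexin-1, was lower with INT-787 than with OCA (−1.34, adjusted p = 0.00622), a value of −0.80 (adjusted p = 0.0163) without OCA replicate 8.

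After group means were removed, the genes whose log2 CPM was most like the Serpina1 sum over 28 mice were Cyp2d10 (Pearson's r = 0.946), C8g (0.926) and Serpinc1 (0.912), among 9340 genes. For Serpina3n they were Map2k2 (0.859), Cideb (0.853) and Atp5d (0.850), for Serpina6 Upp2 (0.931), Por (0.907) and Cyp2a5 (0.905), and for Serpina7 Cd164 (0.765), Ugt2b35 (0.746) and Crot (0.721). Between the members, Serpina6 and Serpina7 correlated at −0.508 and Serpina3k and Serpina7 at 0.468. All points share their library, so these values are a description.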
